A study of Mus musculus with 19 samples.

Results

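Genes that make, remove or report reactive oxygen species were followed in mouse sciatic nerve, the large nerve of the hind limb. The set was a written list of 42 genes, chosen by function but with earlier results of these data known. Counts and medians over the set are therefore descriptions. Of the 42 genes, 39 had a probe set that the platform annotation gives to that gene alone, and all 39 lay above the filter on low intensity, among 13460 genes tested and 18193 genes with a symbol. Prdx1 is read only by probe sets shared with another symbol, Prdx5 and Prdx6 are not listed in the annotation used, and these 3 peroxiredoxins were not analysed here.

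The study crossed diabetes with rosiglitazone in DBA/2J mice, an inbred strain that all groups share, and each array held the nerve RNA of 1 mouse. Diabetic mice given rosiglitazone (DR, 5 arrays) and diabetic mice given vehicle (DV, 5 arrays) had received streptozotocin (STZ), a toxin that destroys insulin-producing cells and so models type 1 diabetes. Control mice given rosiglitazone (CR, 5 arrays) and control mice given vehicle (CV, 4 arrays, after the authors left out 1 array) had no STZ treatment in their labels. Rosiglitazone is an agonist of PPAR gamma, a nuclear receptor of fat and immune cells, and the study asked whether it alters diabetic neuropathy. Arrays are named by group and the number in their titles, such as DV706, and the labels used here give no age, sex, dose or duration.

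Superoxide dismutases turn superoxide into hydrogen peroxide, which catalase, glutathione peroxidases and peroxiredoxins then remove. Glutathione and thioredoxin supply the electrons for that step and are themselves recycled with NADPH. The transcription factor NRF2, encoded by Nfe2l2, is held in check by KEAP1 and raises many of these enzymes by binding antioxidant response elements, while NADPH oxidases of phagocytes and other cells produce superoxide. In peripheral nerve, oxidative stress is among the mechanisms long discussed for diabetic damage to axons, Schwann cells and small vessels.

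The core of an antioxidant response element, written TGACNNNGC, was searched on both strands of RefSeq promoters (mouse build GRCm38.p6, 250 bases before to 50 bases after the annotated start), to show which of these genes carry those letters close to their start. Of the 42 genes, 35 had a promoter in the table, and 7 of them held the core, which is 20% of the genes matched, against 14.0% of all 27025 genes in the table (12.4% of its 32851 windows). These 7 were Nfe2l2, Srxn1, Gclm, Prdx1, Mgst1, Txnrd1 and Sod1. A match describes letters in a window and is not a measured binding site. Stretches are printed for the 5 measured genes whose core and flanking bases lie before the annotated start. Srxn1, with its core at base 29 after the start, was left out by that rule, and Prdx1 was not measured. They are written 5′ to 3′ on the gene's strand, with the core in capitals (its reverse complement where it lies on the other strand).
Gclm: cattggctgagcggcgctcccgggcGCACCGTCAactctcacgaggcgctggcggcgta
Mgst1: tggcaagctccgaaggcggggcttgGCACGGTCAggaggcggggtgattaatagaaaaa
Nfe2l2: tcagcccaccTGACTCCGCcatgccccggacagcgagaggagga
Sod1: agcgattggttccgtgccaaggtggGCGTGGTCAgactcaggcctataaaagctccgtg
Txnrd1: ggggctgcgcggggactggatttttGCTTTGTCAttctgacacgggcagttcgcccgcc
They lie at chr3:122245398-122245456 (Gclm, plus strand), chr6:138140446-138140504 (Mgst1, plus strand), chr2:75704870-75704913 (Nfe2l2, minus strand), chr16:90220681-90220739 (Sod1, plus strand) and chr10:82859089-82859147 (Txnrd1, plus strand). By that rule each printed core lies before the annotated start. Its first base is at -134 for Gclm, -56 for Mgst1, -240 for Nfe2l2, -56 for Sod1 and -92 for Txnrd1, counted from the start.

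All levels below are log2 of the deposited probe set intensity, and a difference of 1 is a 2-fold change. Because probes differ in how strongly they bind, levels are compared between arrays and never between genes. Differences come from a limma fit of 4 group means across 13460 genes, and a gene passed the test at an adjusted p under 0.05 (Benjamini-Hochberg over all genes tested). No gene passed in any of the 5 comparisons (percent of all genes tested: 0 in diabetes under vehicle, 0 in rosiglitazone in diabetic mice, 0 in rosiglitazone in control mice, 0 in diabetes under rosiglitazone and 0 in the interaction). The counts at an unadjusted p under 0.05 are therefore descriptions, to be read against the percentage of all genes given with them. Each gene is shown by its brightest probe set. Of the 24 genes with several probe sets above the filter, 12 had 1 or more of opposite sign to the brightest for DV against CV (Sod1, Sod2, Sod3, Cat, Prdx2, Prdx4, Txnrd2, Glrx, Gclc, Gss, Gstm1 and Nfe2l2), and 8 for DR against DV, so the direction of these genes depends on the probe set.

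Several arrays stood apart before any group comparison. A measure of RNA integrity, the signal of the 3' Gapdh control probes minus that of the 5' ones (log2), is higher in more degraded RNA. It was 3.71 in DV706 and 4.38 in DV707, 1.75 in DR716, and 1.00 to 1.37 in the other 16 arrays. The level of sensory neuron cell body markers (mean of 10 of 12 listed markers, each centred on its mean over all arrays) was -3.15 in DR716, -2.72, -3.31 and -3.11 in DV706, DV707 and DV709, and -3.30 in CR715, against -0.03 to 1.95 in the other 14 arrays. These markers belong to ganglia rather than to nerve, while the 7 Schwann cell markers with a probe set of their own, of 10 listed, were all above the filter. In whole nerve, fewer cells of a type and less RNA per cell cannot be told apart. The labels name no batch.

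**Figure D1:**
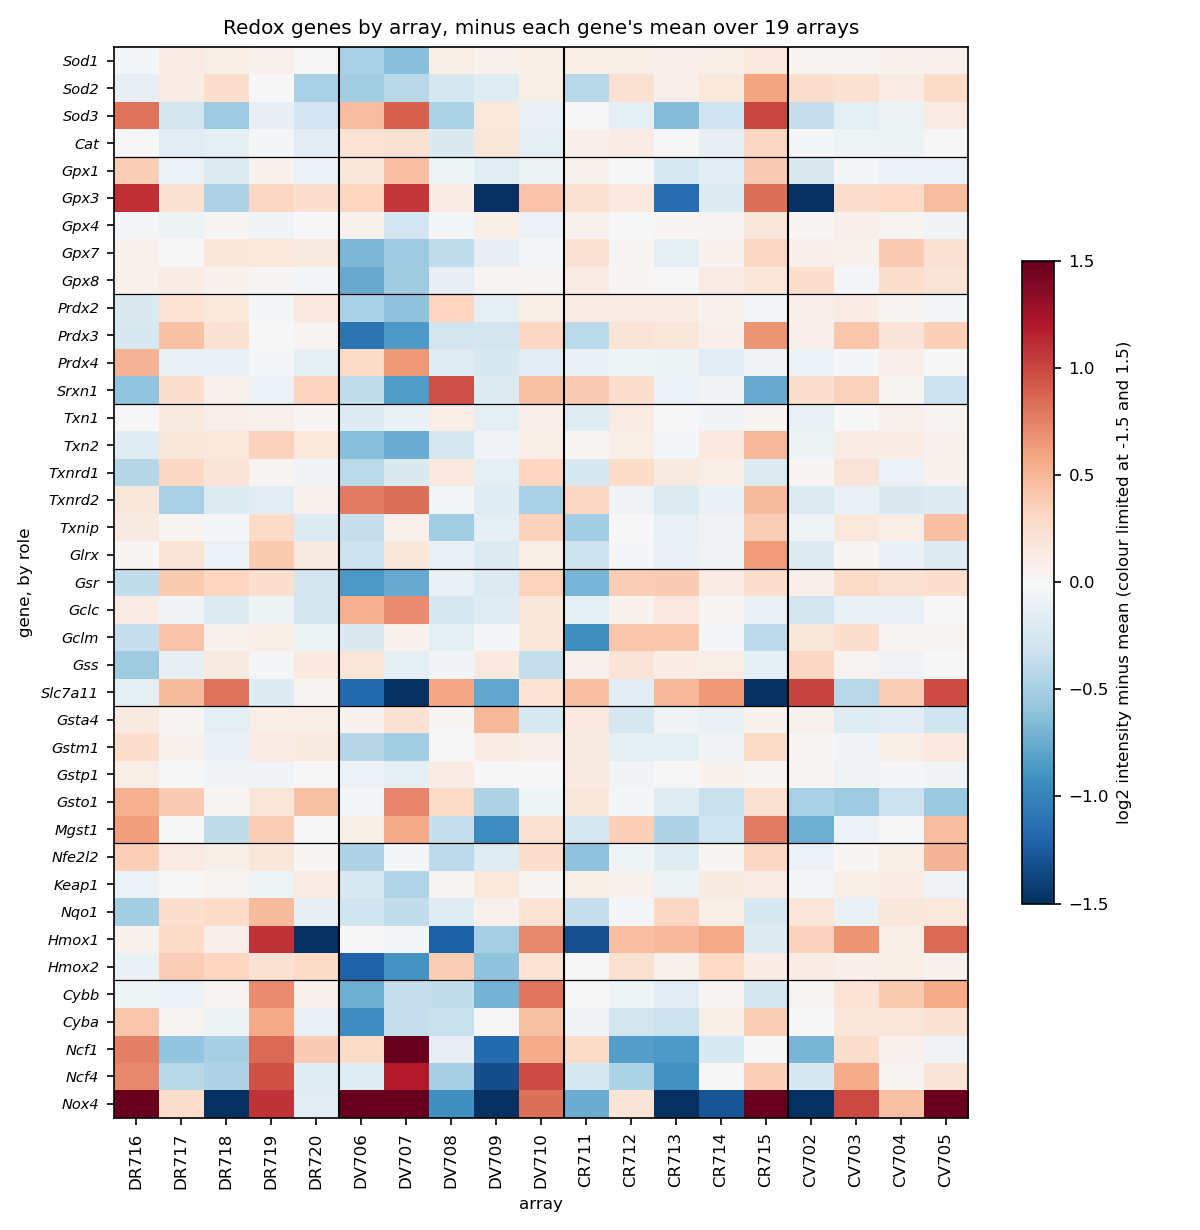
Each row is 1 of the 39 measured redox genes, each column 1 array (DR, DV, CR, CV from left to right), and colour gives log2 intensity minus the gene's mean over 19 arrays, limited at -1.5 and 1.5. DV706 and DV707 are blue in many rows, including Sod1, Gpx7, Gpx8, Prdx3, Txn2 and Hmox2, and Nox4 and Gpx3 vary widely within every group.

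The glutathione peroxidases of the endoplasmic reticulum, Gpx7 and Gpx8, had the smallest p-values of the set for diabetes under vehicle. They use peroxide made during protein folding. Gpx7 read 11.54, 11.48, 11.66, 11.64 and 11.61 in DR nerves, 10.81, 10.93, 11.11, 11.36 and 11.46 in DV nerves, 11.71, 11.50, 11.33, 11.54 and 11.79 in CR nerves, and 11.56, 11.55, 11.86 and 11.71 in CV nerves. All 5 DV values lay below all CV and all DR values. Gpx7 averaged 11.14 ± 0.27 in DV nerves (SD, n = 5) and 11.67 ± 0.15 in CV nerves (SD, n = 4), a difference of -0.53 (SE 0.13, 95% interval -0.81 to -0.26, adjusted p = 0.238). Set against DV nerves, DR nerves were higher by 0.45 (SE 0.12, 95% interval 0.19 to 0.71, adjusted p = 0.497). Both comparisons share the DV arrays. In the remaining pair of groups, DR differed from CR by 0.01, with an interval of -0.25 to 0.27.

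Without DV706 and DV707 the Gpx7 difference was -0.36 for DV against CV (SE 0.12, adjusted p = 0.961) and 0.28 for DR against DV (SE 0.12, adjusted p = 1.00). In the same smaller set of arrays the interaction, which is the rosiglitazone difference in diabetic mice minus that in control mice, was 0.37 for Gpx7 (SE 0.16, adjusted p = 1.00), against 0.55 with all arrays (adjusted p = 0.748). With those arrays left out, Gpx7 was the one gene of the set with an unadjusted p under 0.05 in all 3 of these comparisons. Among all genes 4.50%, 1.92% and 2.20% had such a p, comparison by comparison. The 3 comparisons use the same remaining DV arrays, and Gpx7 was singled out by its p-values, so they are not 3 separate results.

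Gpx8 read 12.36, 12.41, 12.36, 12.32 and 12.29 in DR nerves, 11.56, 11.78, 12.18, 12.32 and 12.32 in DV nerves, 12.43, 12.34, 12.31, 12.44 and 12.49 in CR nerves, and 12.56, 12.29, 12.57 and 12.50 in CV nerves. DV706 and DV707 gave the 2 low values, and the other 3 DV values overlapped those of the other groups. The difference was -0.45 (SE 0.14, adjusted p = 0.238) for DV against CV and 0.32 (SE 0.13, adjusted p = 0.497) for DR against DV. These became -0.21 (SE 0.09) and 0.08 (SE 0.08) without DV706 and DV707, and only the first kept an unadjusted p under 0.05.

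The other peroxidases of this family differed less or varied more. Gpx4, which repairs oxidised membrane lipids, ran from 13.20 to 13.65 over all arrays, and its interval for DV against CV, -0.26 to 0.09, excludes a 2-fold change in either direction, while its second probe set gave -0.44. Gpx1, the common cytosolic form, had an interval of -0.15 to 0.48. Gpx3, the secreted form found in plasma, spanned 10.25 to 14.04. Its lowest values, 10.25 in DV709 and 11.44 in CV702, fell in the 2 arrays with the lowest adipocyte marker level (-3.52 and -2.72). Its highest, 14.04, was in DR716 (adipocyte level 1.55). DV707 read 13.99 at a level of 0.28, above CR715, which read 13.76 at the highest level, 2.59. The 8 adipocyte markers with a probe set of their own (of 10 listed, all 8 above the filter) had levels of -0.78 to 1.55 in DR, -3.52 to 0.46 in DV, -0.61 to 2.59 in CR and -2.72 to 1.07 in CV nerves. Their part in the Gpx3 values was not tested.

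Among peroxiredoxins, which reduce peroxide through a reactive cysteine, mitochondrial Prdx3 stood out. Prdx3 read 10.21, 10.89, 10.67, 10.45 and 10.49 in DR nerves, 9.36, 9.59, 10.18, 10.18 and 10.76 in DV nerves, 10.05, 10.65, 10.62, 10.53 and 11.11 in CR nerves, and 10.53, 10.87, 10.65 and 10.81 in CV nerves. The lowest values were again those of DV706 and DV707, while DV710 lay within the CV range. DV and CV nerves differed by -0.70 (SE 0.24, adjusted p = 0.238), and DR and DV nerves by 0.53 (SE 0.23, adjusted p = 0.497). With both left out, these were -0.34 (SE 0.22) and 0.17 (SE 0.21), neither with an unadjusted p under 0.05.

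Txn2, the thioredoxin that feeds electrons to Prdx3 in mitochondria, read 10.76, 11.11, 11.09, 11.28 and 11.10 in DR nerves, 10.30, 10.19, 10.69, 10.88 and 11.03 in DV nerves, 10.96, 11.03, 10.92, 11.08 and 11.44 in CR nerves, and 10.86, 11.05, 11.04 and 11.00 in CV nerves. It lay lowest in DV706 and DV707, and the other 3 DV values ran into the range of the remaining groups. Differences were -0.37 (SE 0.16, adjusted p = 0.256) for DV against CV and 0.45 (SE 0.15, adjusted p = 0.497) for DR against DV, or -0.12 (SE 0.14) and 0.20 (SE 0.13) without those arrays. Its 3 probe sets had the same sign in both comparisons.

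Sod2, the mitochondrial superoxide dismutase, was the other gene besides Gpx7 whose DV and CV values did not overlap. It read 11.54, 11.76, 11.91, 11.64 and 11.17 in DR nerves, 11.13, 11.23, 11.39, 11.47 and 11.74 in DV nerves, 11.24, 11.88, 11.73, 11.81 and 12.25 in CR nerves, and 11.92, 11.89, 11.78 and 11.94 in CV nerves. The difference for DV against CV was -0.49 (SE 0.18, adjusted p = 0.238), but the other 3 probe sets of Sod2 gave -0.04, 0.16 and 0.19. The direction for Sod2 therefore rests on the brightest probe set. Txnrd2, the reductase of mitochondrial thioredoxin, was 8.52 and 8.56 in DV706 and DV707, above all other arrays (7.25 to 8.21), and only 1 of its 4 probe sets had the sign of the brightest one.

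**Figure D2:**
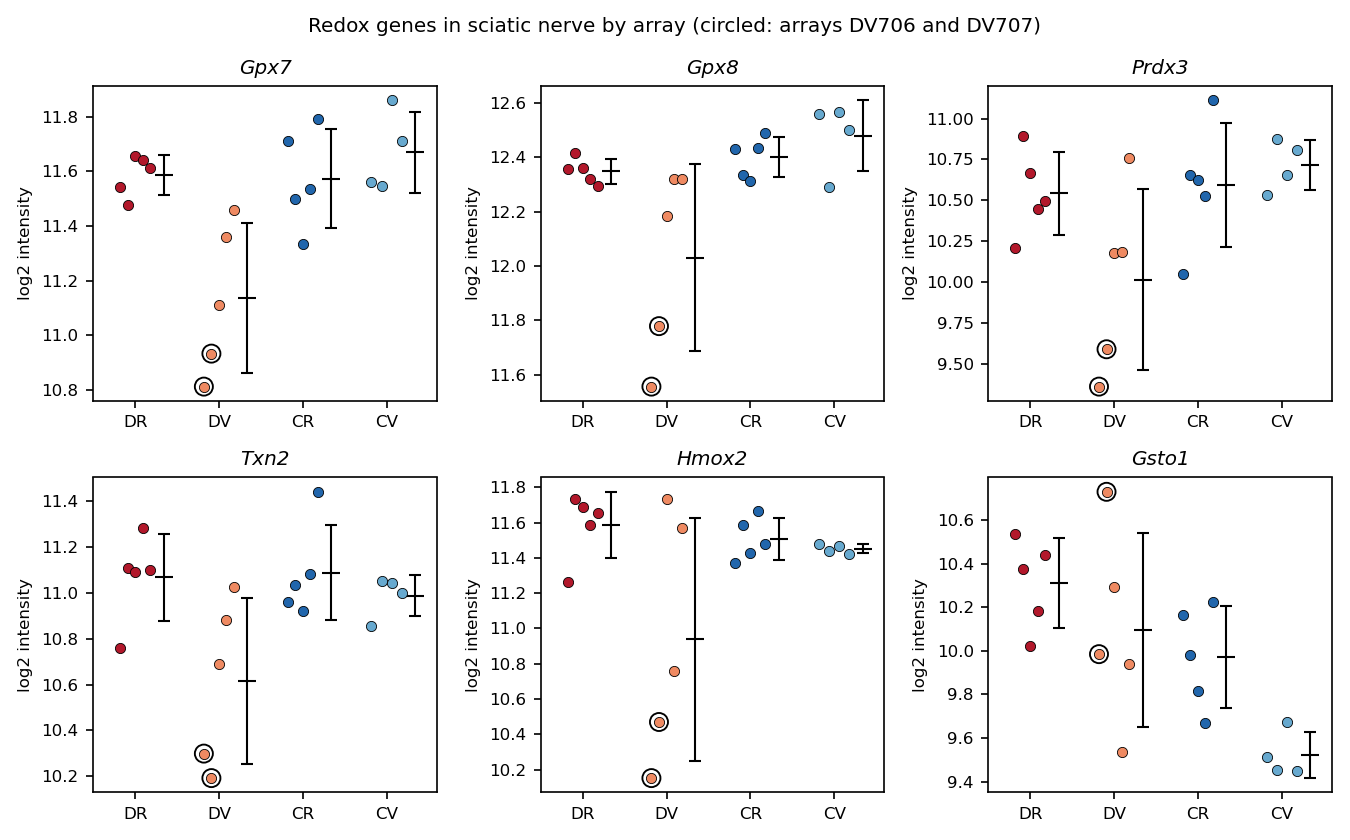
Log2 intensity of 6 redox genes in every array, with groups from left to right DR, DV, CR and CV and bars showing the group mean and SD (n = 5, or 4 for CV). DV706 and DV707 are circled. They are the lowest points for Gpx7, Gpx8, Prdx3, Txn2 and Hmox2, and for Gpx7 the other 3 DV arrays also lie below all DR and CV arrays.

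Gsto1, a glutathione transferase of the omega class that reduces dehydroascorbate and small thiol conjugates, was the only gene of the set higher in DV nerves at an unadjusted p under 0.05. Gsto1 read 10.54, 10.37, 10.02, 10.18 and 10.44 in DR nerves, 9.98, 10.73, 10.29, 9.54 and 9.94 in DV nerves, 10.16, 9.98, 9.82, 9.67 and 10.22 in CR nerves, and 9.51, 9.45, 9.67 and 9.45 in CV nerves. The 4 CV arrays held the lowest values as a group, with 1 DV array and 1 CR array reaching into their range. Gsto1 differed by 0.57 for DV against CV (SE 0.19, adjusted p = 0.238), by 0.45 for CR against CV (SE 0.19, adjusted p = 1.00) and by 0.34 for DR against CR (SE 0.18, adjusted p = 1.00). The first 2 of these share the CV arrays. The first was 0.40 (SE 0.18, adjusted p = 0.961) without DV706 and DV707.

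The remaining transferases, which join glutathione to reactive compounds, followed no common course. Gstp1 kept within 13.47 to 13.73 over all arrays, with an interval of -0.15 to 0.16 for DV against CV. Gstm1 lay at 12.64 and 12.56 in DV706 and DV707, below the other 17 arrays (12.92 to 13.35). Gsta4, which detoxifies lipid peroxidation products, differed by 0.26 (SE 0.13) for DV against CV. Mgst1, a membrane form whose promoter stretch is printed above, spanned 10.95 in DV709 to 12.67 in CR715, the arrays with the lowest and highest adipocyte level. The part of adipocyte transcripts in Mgst1 was not tested.

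The NRF2 group here also holds the heme oxygenases and the quinone reductase Nqo1. Of its genes, 5 of 5 had a negative difference for DV against CV (median -0.30), against 47.1% of all genes. For DR against DV, 5 of 5 had a positive one (median 0.19), against 47.2% of all genes. These comparisons share the DV arrays. The first count depends on the probe set, since the second one of Nfe2l2 gave 0.30 for DV against CV. The second count includes Hmox1 at 0.03 (SE 0.53) and Keap1 at 0.09 (SE 0.10). Hmox2, the constitutive heme oxygenase, gave the smallest p in both comparisons. Hmox2 read 11.26, 11.73, 11.69, 11.59 and 11.66 in DR nerves, 10.15, 10.47, 11.73, 10.76 and 11.57 in DV nerves, 11.37, 11.59, 11.43, 11.66 and 11.48 in CR nerves, and 11.48, 11.44, 11.47 and 11.42 in CV nerves. DV706, DV707 and DV709 were low, whereas DV708 and DV710 lay above all CV arrays. Those low arrays are also the DV arrays low in sensory neuron markers (-2.72, -3.31 and -3.11). In CR715 and DR716, also low in these markers, Hmox2 read 11.48 and 11.26. The part of neuronal transcripts in Hmox2 was not tested. The differences were -0.51 (SE 0.24, adjusted p = 0.275) for DV against CV and 0.65 (SE 0.23, adjusted p = 0.497) for DR against DV. They came to -0.10 (SE 0.18) and 0.23 (SE 0.17) without DV706 and DV707, neither with an unadjusted p under 0.05.

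Nfe2l2, the gene of NRF2 itself, read 11.62, 11.39, 11.36, 11.44 and 11.28 in DR nerves, 10.81, 11.24, 10.87, 11.09 and 11.53 in DV nerves, 10.66, 11.20, 11.08, 11.30 and 11.58 in CR nerves, and 11.17, 11.30, 11.36 and 11.78 in CV nerves. Every group overlapped every other. Its interaction was 0.55 (SE 0.25, adjusted p = 0.748), made up of 0.31 for DR against DV and -0.24 for CR against CV. The second probe set of Nfe2l2 gave 0.48 and 0.40 for the same 2 comparisons and 0.08 for the interaction, so only the brighter one carries it.

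Of the other genes in that group, the repressor Keap1 had a 95% interval of -0.35 to 0.11 for DV against CV. Its second probe set gave -0.36 there, and 0.46 for DR against DV, where the brightest gave 0.09. Nqo1, a classical NRF2 target, differed by -0.22 (SE 0.19) for DV against CV. Hmox1, the inducible heme oxygenase, ranged from 8.17 in DR720 to 11.65 in DR719, 2 arrays of 1 group. Its interval for DV against CV, -1.88 to 0.49, leaves a wide span of differences possible.

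Of the 5 genes of glutathione supply, 4 were lower and 1, Gclc, was higher in DV than in CV nerves (median -0.15), and 1 had an unadjusted p under 0.05. Slc7a11, the cystine importer, had the largest difference of the set for DV against CV, -1.05 (SE 0.49, adjusted p = 0.273). Its lowest values were 5.70 and 5.21 in DV706 and DV707 and 5.25 in CR715, all near the filter at 5.54 and all in arrays low in sensory neuron markers. DR716, also low in these markers, read 6.72, above CV703 (6.44), which is not. Without the 5 arrays low in those markers the Slc7a11 difference was -0.09 (SE 0.39, adjusted p = 0.94), with DV708 and DV710 the only DV arrays. The part of neuronal transcripts in Slc7a11 was not tested. Gsr, which recycles oxidised glutathione, was lowest in DV706, DV707 and CR711 (11.28, 11.38 and 11.45). The limiting ligase of glutathione synthesis has the subunits Gclc and Gclm. Gclc was highest in DV706 and DV707 (9.22 and 9.39), but its second probe set had the opposite sign (-0.58 against 0.32). Gclm, with a core in its promoter, differed by -0.15 (SE 0.22), and Gss by -0.12 (SE 0.14).

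Thioredoxin itself varied little between arrays. Txn1, the cytosolic thioredoxin, ran from 12.99 to 13.32 over 19 arrays, and its interval for DV against CV was -0.24 to 0.13. Its reductase Txnrd1, whose promoter stretch holds the core, had an interval of -0.45 to 0.24, but its other 2 probe sets gave -1.503 and -0.93 for DV against CV. Sod1, the cytosolic dismutase and also with a core, was 13.51 and 13.35 in DV706 and DV707 and within 13.96 to 14.13 in the other 17. Catalase (Cat), a peroxisomal enzyme, read 12.08, 11.92, 11.96, 12.06 and 11.93 in DR nerves, 12.29, 12.31, 11.87, 12.26 and 11.96 in DV nerves, 12.17, 12.20, 12.09, 11.97 and 12.39 in CR nerves, and 12.07, 12.02, 12.02 and 12.08 in CV nerves. DR717, DR718 and DR720 lay below all CR arrays, while DR716 and DR719 lay within the CR range. The difference for DR against CR was -0.17 (SE 0.10, adjusted p = 1.00).

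The remaining members of these families had intervals for DV against CV that included 0. Sod3, the extracellular dismutase, ran from 10.13 in CR713 to 11.77 in CR715, with an interval of -0.39 to 0.98, and its second probe set gave -0.84. Srxn1, which restores over-oxidised peroxiredoxins, had both its lowest value (10.49, DV707) and its highest (12.30, DV708) in DV nerves, and an interval of -0.74 to 0.58. Glrx, a glutaredoxin that removes glutathione from proteins, spanned 9.97 in DV706 to 10.92 in CR715, with an interval of -0.30 to 0.38, and its second probe set gave -0.83. Cytosolic Prdx2 differed by -0.21 (SE 0.15) and Prdx4 of the endoplasmic reticulum by 0.07 (SE 0.17), and for both the lowest and the highest array were DV arrays.

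Txnip binds thioredoxin and is induced by glucose in many cell types. Txnip read 13.09, 12.99, 12.94, 13.24 and 12.77 in DR nerves, 12.62, 13.03, 12.44, 12.82 and 13.31 in DV nerves, 12.45, 12.97, 12.85, 12.91 and 13.33 in CR nerves, and 12.89, 13.12, 13.06 and 13.41 in CV nerves. No pair of groups separated. The difference for DV against CV was -0.28 (SE 0.18), with an interval of -0.66 to 0.11. For CR against CV it was -0.22 (SE 0.18, adjusted p = 1.00). The second probe set of Txnip gave -1.34 for DV against CV, -0.66 for CR against CV and 0.87 for DR against DV, so the size for Txnip depends on the probe set.

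**Figure D3:**
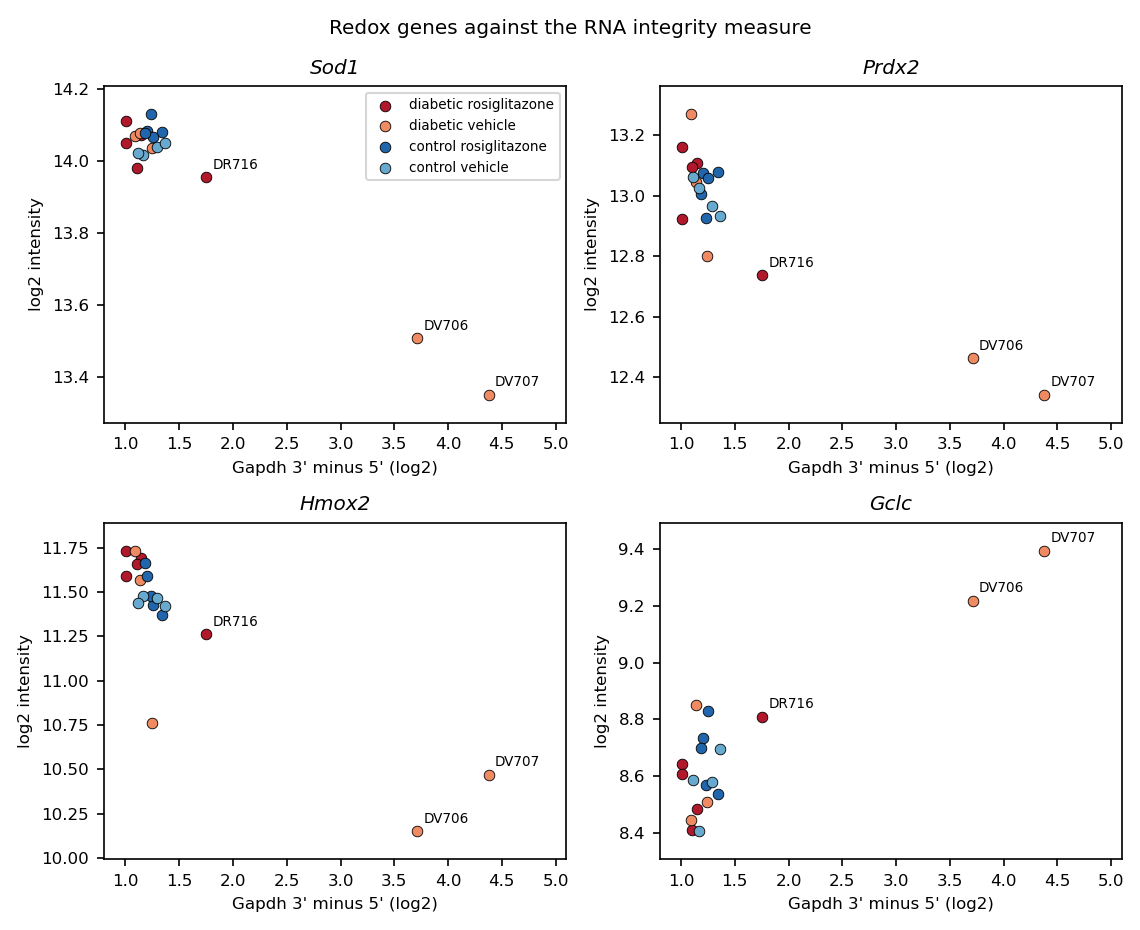
Log2 intensity of Sod1, Prdx2, Hmox2 and Gclc (vertical) against the Gapdh 3' minus 5' difference (horizontal, log2), 1 point per array, coloured by group (DR, DV, CR, CV). DV706 and DV707, at 3.71 and 4.38, lie below all other arrays for Sod1, Prdx2 and Hmox2 and above them for Gclc.

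The 2 arrays with the highest Gapdh difference carried low values for many of these genes. Both DV706 and DV707 lay below the other 17 arrays for 12 of the 39 genes (30.8%), against 11.6% of all genes tested, and both lay above for 2 genes (5.13%), against 14.6%. The 12 were Sod1, Gpx7, Gpx8, Prdx2, Prdx3, Txn2, Gsr, Gstm1, Gstp1, Keap1, Hmox2 and Cyba, and the 2 were Txnrd2 and Gclc. The lowest of all values was in DV706 or DV707 for 19 of 39 genes (48.7%, against 25.3% of all genes). CR715 held the highest value for 10 genes (25.6%, against 10.6%), Sod2, Prdx3 and Txn2 among them.

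NADPH oxidase genes, the producers of superoxide, varied widely between arrays. Cybb encodes the catalytic subunit of the phagocyte enzyme, and Ncf1 and Ncf4 its cytosolic partners. Cybb read 8.76, 8.74, 8.87, 9.53 and 8.90 in DR nerves, 8.10, 8.47, 8.45, 8.12 and 9.63 in DV nerves, 8.82, 8.77, 8.65, 8.85 and 8.55 in CR nerves, and 8.87, 9.03, 9.22 and 9.39 in CV nerves. All CR values and 4 of the 5 DV values lay below all CV values, with DV710 the exception at 9.63. Cybb differed by -0.57 for DV against CV (SE 0.25, adjusted p = 0.252) and by -0.40 for CR against CV (SE 0.25, adjusted p = 1.00). Its interaction was 0.81 (SE 0.34, adjusted p = 0.748), and 0.63 (SE 0.36, adjusted p = 1.00) without DV706 and DV707.

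Ncf1 read 9.58, 8.24, 8.33, 9.67 and 9.21 in DR nerves, 9.11, 10.40, 8.70, 7.67 and 9.38 in DV nerves, 9.11, 7.999, 7.97, 8.60 and 8.83 in CR nerves, and 8.14, 9.09, 8.89 and 8.78 in CV nerves. The DV group held both the highest and the lowest array. Ncf1 differed by 0.51 for DR against CR (SE 0.42, adjusted p = 1.00). Ncf4 ran from 7.24 in DV709 to 9.77 in DV707. Those arrays also had the lowest and highest macrophage marker level, -0.81 and 0.71. The macrophage level rests on 10 of 11 markers, Itgam lying below the filter, and ran from -0.26 to 0.52 in DR, -0.81 to 0.71 in DV, -0.41 to 0.11 in CR and -0.01 to 0.25 in CV nerves. Its part in the Cybb, Ncf1 and Ncf4 values was not tested.

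Cyba, the partner that anchors the catalytic subunits, was 11.12 and 11.69 in DV706 and DV707, the lowest of the 19 arrays. Nox4, an oxidase that makes hydrogen peroxide in vessels, fibroblasts and other cells, had the widest range of the set, 4.11 to 10.88. It read 4.11 in DV709 and 4.62 in CV702, the arrays lowest in adipocyte markers and both under the filter value of 5.54. Its highest value, 10.88, was in DV707 (adipocyte level 0.28), while CR715, highest in adipocyte markers (2.59), read 9.70. The Nox4 interval for DV against CV, -2.44 to 2.85, gives no bound of use. The part of adipocyte transcripts in Nox4 was not tested.

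**Figure D4:**
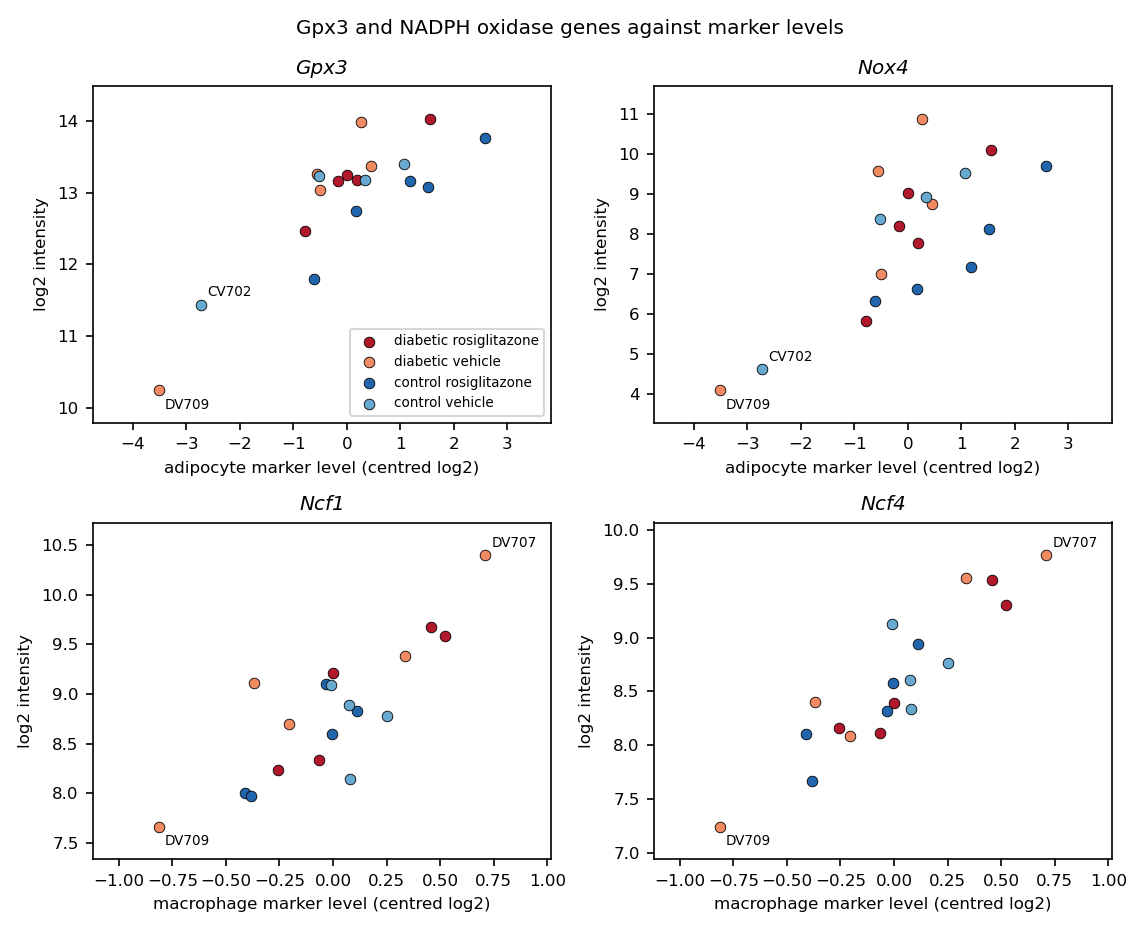
Log2 intensity of Gpx3 and Nox4 against the adipocyte marker level, and of Ncf1 and Ncf4 against the macrophage marker level (centred log2), 1 point per array, coloured by group (DR, DV, CR, CV). DV709 is at the low end of all 4 panels, CV702 is second lowest for Gpx3 and Nox4, and DV707 is highest for Ncf1 and Ncf4.

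Over the whole set, DV nerves had a lower value than CV nerves for 26 of 39 genes and a higher one for 13, with a median difference of -0.12, against 0.03 over all genes tested. At an unadjusted p under 0.05 there were 9 genes (23.1%), against 18.1% of all genes. Of these 1 was higher (all genes 10.7%) and 8 were lower (all genes 7.39%), namely Gpx7, Gpx8, Prdx3, Sod2, Cybb, Txn2, Slc7a11 and Hmox2. Values of DV and CV did not overlap for 2 genes, against 5.06% of all genes. By place in the cell, 3 of the 4 mitochondrial genes and 2 of the 3 endoplasmic reticulum genes were among the 8 lower ones, against 7.39% of all genes. Both lists are short. The 3 mitochondrial genes were Prdx3, Txn2 and Sod2, and the direction of Sod2 rests on its brightest probe set. None of these 3 kept such a p without DV706 and DV707. The 9 became 3 without DV706 and DV707 (Gpx7, Gpx8 and Gsto1), against 4.50% of all genes. They became 16 without DV710 (29.2% of all genes), and 5 without any one of CV704, CV705, DV706 and DV707 (9.09% to 12.4% of all genes). Without the 5 arrays low in sensory neuron markers the split was nearly even, 21 lower and 18 higher in DV (median -0.08). There 4 genes had an unadjusted p under 0.05, against 11.4% of all genes. That setting keeps only DV708 and DV710 as DV arrays. It also removes DV706 and DV707, so neuronal markers, RNA integrity and array number cannot be told apart in it.

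For rosiglitazone in diabetic mice, DR nerves were higher than DV nerves for 29 genes and lower for 10, with a median of 0.16 against -0.02 over all genes. Unadjusted p lay under 0.05 for 5 genes (12.8%, against 9.7% of all genes), all higher in DR (all genes 4.13%), namely Gpx7, Txn2, Hmox2, Gpx8 and Prdx3. Only Gpx7 had groups that did not overlap, against 0.632% of all genes. The 5 became 2 without DV706 and DV707 (Gpx7 and Gsto1), against 1.92% of all genes, where Gsto1 differed by 0.39. They became 12, 10 and 8 without DV710, DV708 and DV709 (22.3%, 16.2% and 13.3% of all genes), and 3 without DV706 (3.32%). With the 5 arrays low in sensory neuron markers left out, 23 genes were higher and 16 lower in DR (median 0.03). Of the set, 3 genes then had an unadjusted p under 0.05, against 4.23% of all genes. Here too only DV708 and DV710 remained as DV arrays.

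In control mice rosiglitazone went with few differences in the fit of all 4 groups, which shares 1 spread over them, the DV arrays included. CR nerves were higher than CV nerves for 17 genes and lower for 22 (median -0.03, all genes 0.00), and 1 gene, Gsto1, had an unadjusted p under 0.05 (all genes 2.83%). Sod1 lay higher without overlap (14.07 to 14.13 in CR, 14.02 to 14.05 in CV) and Cybb lower without overlap, against 3.45% of all genes whose groups did not overlap. The 95% interval lay within -0.5 and 0.5 for 19 of the 39 genes, against 5011 of all 13460 genes. The count of 1 was 0 without CV702, CV703, CV705, CR711 or CR715 (1.52% to 2.98% of all genes). It was 2 with only the groups compared (5.97% of all genes) and 6 with array weights (15.4%), so it depends on the spread used. With the 5 arrays low in those neuronal markers left out, the median was -0.10.

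Under rosiglitazone, diabetic and control mice gave the fewest differences by these counts. DR nerves were higher than CR nerves for 22 genes and lower for 17 (median 0.04, all genes 0.01), none had an unadjusted p under 0.05 by limma (all genes 1.29%), and none had groups that did not overlap (all genes 0.401%). The 95% interval lay within -0.5 and 0.5 for 20 of the 39 genes, Gpx7, Gpx8 and Txn2 among them, against 6183 of all 13460 genes. NADPH oxidase genes were higher in DR than in CR for 5 of 5 (median 0.38), against 51.7% of all genes. They were lower in CR than in CV for 5 of 5 (median -0.26), against 49.4% of all genes. These comparisons share the CR arrays. None of these 5 genes had an unadjusted p under 0.05 in either comparison. For the whole set the count of 0 was 2 without CR715 (2.64% of all genes) and 1 without DR718 (1.61%). It was 1 with only the groups compared (1.77%) and 2 with array weights (7.42%).

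The interaction was positive for 30 genes and negative for 9, with a median of 0.19 against -0.02 over all genes. Unadjusted p lay under 0.05 for 4 genes (10.3%, against 4.77% of all genes), all positive (all genes 1.88%), namely Gpx7, Cybb, Nfe2l2 and Gpx8 (0.40, SE 0.19, adjusted p = 0.748). Without DV706 and DV707 only Gpx7 was left (2.20% of all genes). The 4 became 10 and 7 without DV710 and DV708 (13.7% and 5.82% of all genes), 2 without CV704, CR711 or CR713 (2.68% to 5.23%), and 1 without CV705, DV706 or DR719 (2.47% to 3.15%).

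**Figure D5:**
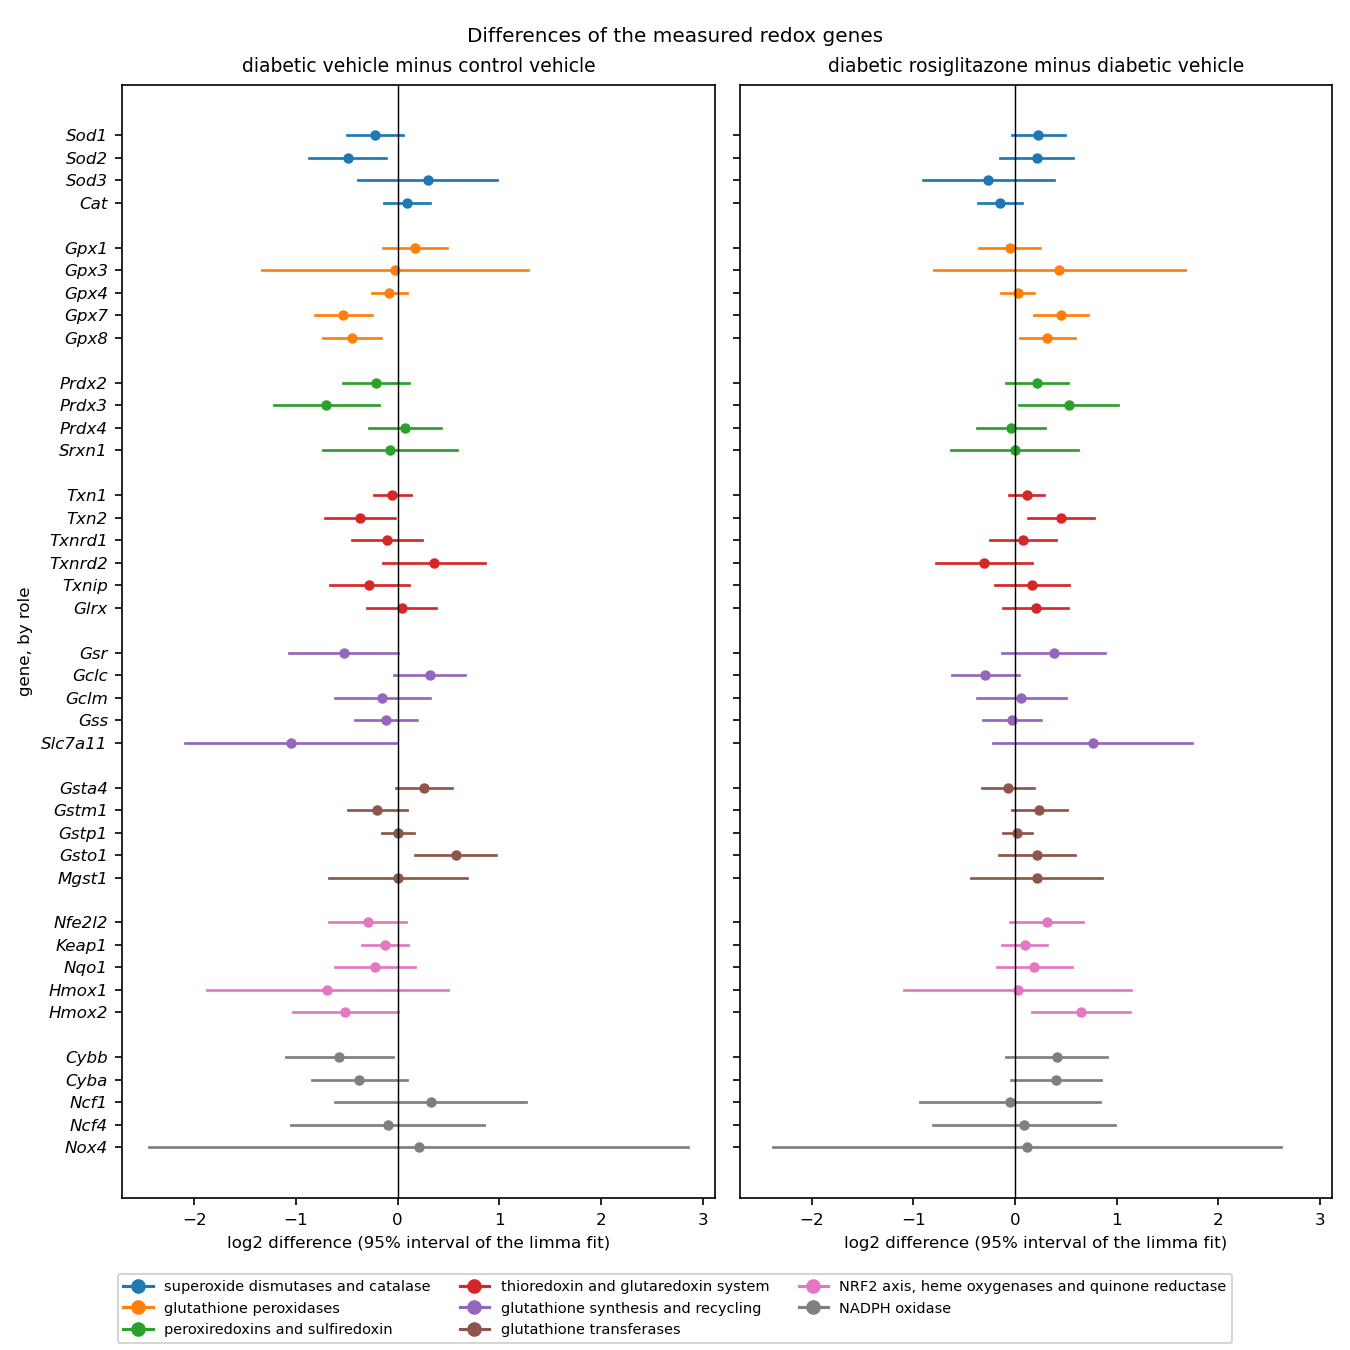
Log2 difference with its 95% interval from the limma fit for each of the 39 genes, ordered and coloured by role, for diabetic vehicle minus control vehicle (left) and diabetic rosiglitazone minus diabetic vehicle (right). Gpx7 has the interval farthest from 0 relative to its width in both panels, and Nox4 the widest interval.

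Other genes of redox metabolism came from a list of 76, of which 67 were tested. For DV against CV 33 were higher and 34 lower (median 0.00), and 12 had an unadjusted p under 0.05 (7 higher, 5 lower), which is 17.9% against 18.1% of all genes. Mafg, a small partner of NRF2 on DNA, averaged 10.59 ± 0.55 in DV nerves and 9.91 ± 0.13 in CV nerves, a difference of 0.69 (SE 0.22, adjusted p = 0.238). Oxr1, an oxidation resistance factor, differed by 0.43 (SE 0.14, adjusted p = 0.238) and Selenok, a selenoprotein of the endoplasmic reticulum, by -0.86 (SE 0.30, adjusted p = 0.238).

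For DR against DV, 39 of the 67 were higher and 28 lower (median 0.07), and 11 had an unadjusted p under 0.05 (8 higher, 3 lower), which is 16.4% against 9.7% of all genes. The smallest p-values belonged to Txndc5, a disulfide isomerase (0.37, SE 0.14), Blvrb, which reduces biliverdin (0.99, SE 0.39), and the transferase Mgst3 (1.03, SE 0.41), each with an adjusted p of 0.497. Mgst3 averaged 11.22 ± 0.09 in DR and 10.19 ± 1.10 in DV nerves, so the DV arrays were spread far more widely.

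For CR against CV, 41 were higher and 26 lower (median 0.06), and 2 had an unadjusted p under 0.05 (2.99%, against 2.83% of all genes), Glrx2 (0.32, SE 0.10) and Taldo1 of the pentose phosphate pathway (0.33, SE 0.14). Cbr1, a carbonyl reductase, differed by 0.25 (SE 0.14), and its values of 11.49 to 11.75 in CR did not overlap the 11.29 to 11.41 in CV nerves. For DR against CR, 31 were higher and 36 lower (median -0.02). The smallest p-values there were those of 3 NADPH-related enzymes that all lay lower, Tkt (-0.28, SE 0.13), Me1 (-0.31, SE 0.17) and Taldo1 (-0.22, SE 0.13), of which Tkt had an unadjusted p under 0.05 (1 of 67 is 1.49%, against 1.29% of all genes). All adjusted p-values in these last 2 comparisons rounded to 1.00.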

How the data were processed

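Nerve RNA was amplified with the NuGEN Ovation kit and hybridised to Affymetrix arrays, per the labels' protocols. The values the authors deposited are linear intensities, 1 for each probe set on each array. RMA is named in the submitters' processing notes, while its version and the step back from log2 are not given in the sources used here. Groups came from the sample titles, and no file name or value was used for them.

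Deposited intensities were put on the log2 scale without an offset. Each gene was represented by its brightest probe set (highest mean over 19 arrays) among those with only its symbol, and genes above the 40th percentile of probe sets that are not controls, log2 5.54, were tested. Of 45037 such probe sets, 34945 had 1 symbol, 932 several and 9160 none. One linear model with 4 group means was fitted to all 13460 genes with limma 3.58.1 in R 4.3.3 (lmFit, eBayes), with Benjamini-Hochberg adjustment within each of 5 comparisons. The script was tested on simulated data. The design text names separate mice, so p-values measure the spread between animals, including differences in dissection and RNA integrity, and the number of arrays limits the precision.

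Every gene of the set is accounted for. Values in every array are given for the 4 with the smallest unadjusted p in each comparison, and of the other redox genes the 3 with the smallest p in the first 4 comparisons are named. Sod1, Sod2 and other genes of the set were described further after their values were seen. The members and lists were chosen with earlier results of these data known. Alternatives left out arrays, changed normalization, filter, probe set rule, weights or arrays in the fit, or added the Gapdh 3' minus 5' difference as a covariate.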

Additional observations from a re-analysis of the deposited data

Results flagged for a closer look

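Of 160 groups of 4 or 5 arrays examined (the 39 genes and the set's mean level, 4 groups each), 9 held 1 array far from the others, judged by its gap to the nearest array relative to the group's range (Dixon's 95% value). Chance gives about 1 in 20. Gpx3 was low in DV709 (10.25) among DV arrays and in CV702 (11.44) among CV arrays, which are the arrays lowest in adipocyte markers, and the part of those transcripts was not tested. Cybb was high in DV710 (9.63) among DV arrays and in DR719 (9.53) among DR arrays, where the macrophage marker level was 0.34 and 0.46. The highest macrophage levels of these groups were in DV707 (0.71) and DR716 (0.52), where Cybb read 8.47 and 8.76. The neutrophil level (6 of 9 listed markers above the filter) was highest of its group in DV710 (3.58) and DR719 (3.04). It was higher still in CV703 (3.96), where Cybb read 9.03 among CV values of 8.87 to 9.39. The part of either cell type in Cybb was not tested. Prdx4, a peroxiredoxin of the endoplasmic reticulum, was high in DR716 (12.68) among DR arrays, the array whose Gapdh 3' minus 5' difference was 1.75.

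In CR arrays Sod1 was high in CR715 (14.13) and Gsr low in CR711 (11.45). In CV arrays Txnrd2 was high (7.64) and Nqo1 low (9.71) in CV703, each within a narrow group. Neither DV706 nor DV707 was flagged in this way for any gene. The rule uses the gap to the nearest array, so arrays that deviate together in a group hide each other from it. Sod1 was not flagged in DV arrays, although it read 13.51 in DV706 and 13.35 in DV707, against 14.04 to 14.08 in the other DV arrays. The missing flags therefore do not show that DV706 and DV707 were like the rest. No gene of the set passed the interaction test.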

How the results depend on the processing

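No gene of the set passed the adjusted threshold under any alternative. Over all genes, 20 passed for rosiglitazone in control mice with array weights, and leaving out single arrays gave 0 to 4 for diabetes under vehicle (4 without DV710) and 0 in the other comparisons. The median difference of the set moved by less than the spread between replicates throughout (pooled SD of the set's mean level, 0.15). That spread exceeds the size of the medians -0.12, -0.03 and 0.04 and is close to that of 0.16 and 0.19. A median could thus fall to near 0 within it, and the rule does not show that the medians are stable. Leaving out the 5 arrays low in sensory neuron markers kept only DV708 and DV710 as DV arrays. The median was then -0.08, 0.03, -0.10, 0.09 and 0.14 in the order below. With 1 array left out it ran from -0.20 to -0.11 for diabetes under vehicle, 0.07 to 0.27 for rosiglitazone in diabetic mice, -0.10 to 0.03 for rosiglitazone in control mice, 0.01 to 0.07 for diabetes under rosiglitazone and 0.12 to 0.29 for the interaction. In the same order, genes of the set at an unadjusted p under 0.05 ran from 5 to 16, 3 to 12, 0 to 1, 0 to 2 and 1 to 10, against 9, 5, 1, 0 and 4 with all arrays.

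Those counts changed by over 1.5 times in the following settings. For diabetes under vehicle they were 3 without DV706 and DV707, 4 without the 5 arrays that were low in sensory neuron markers, 2 with the Gapdh 3' minus 5' covariate, and 5 with array weights or with only the groups compared. For rosiglitazone in diabetic mice they were 2 without DV706 and DV707, 3 without the 5 arrays, 3 with the covariate and 2 with only the groups compared. For rosiglitazone in control mice they were 6 with array weights (15.4% of the set, as of all genes), and 2 with the mean of all probe sets or with only the groups compared. For diabetes under rosiglitazone they were 1 without DV706 and DV707, with the covariate, with the mean of all probe sets and with only the groups compared, and 2 without the 5 arrays and with array weights. For the interaction they were 1 without DV706 and DV707, and 2 without the 5 arrays and with the covariate. Without DV706 and DV707 the counts go with 4.50%, 1.92%, 4.12%, 2.20% and 2.20% of all genes in the 5 comparisons, and fewer arrays enter each fit.

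Quantile normalization and the absence of a filter kept all counts within 1.5 times. The choice of probe set moved more. With the mean of all probe sets, where 38 of the 39 genes stayed above the filter, the difference changed sign for 9, 5, 6, 3 and 6 genes in the 5 comparisons, in the same order. For diabetes under vehicle these include Gclc (-0.13), Sod3 (-0.27) and Glrx (-0.40). Among the genes named by rank, which were followed through all alternatives, Nfe2l2 for rosiglitazone in control mice alone changed sign (0.0795 with that mean). No paired analysis was possible because the groups share no replicate number. The cause of the other shifts was not tested. Levels near the filter, as for Slc7a11 and Nox4 in single arrays, limit what their folds can show.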
